A study of Mus musculus with 64 samples.

Results

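The mitochondrial genome of the mouse carries 37 genes, and all of them were followed here across brown fat (BAT, brown adipose tissue) and the epididymal depot of white fat (eWAT). Members were the genes whose symbol starts with a lowercase mt-, which took 37 of the 52636 genes in the count table, every one of them on chromosome M: 13 genes for mRNAs, 2 for ribosomal RNAs (rRNAs) and 22 for transfer RNAs (tRNAs). RNA was sequenced from male mice of a line with a floxed *Nampt* gene (NamptTM1Jtree) crossed with Adiponectin-Cre mice. FANKO mice lack *Nampt* where the adiponectin promoter drives Cre, that is in adipocytes, while other cells of the depots keep the gene, and WT mice were littermates without Cre. By the study's methods the mice were young adults on chow at room temperature. Tissue was taken at zeitgeber time (ZT) 6, 10, 18 and 22, with ZT 0 the start of the light phase, and 4 samples in each of 16 groups gave 64 samples, so that each depot and genotype is covered by 16 samples.

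Mitochondrial DNA is a small circle without introns. Both of its strands are transcribed into long precursors by the polymerase Polrmt with Tfam and Tfb2m, and the precursors are cut at the tRNAs that lie between the other genes. One strand yields both rRNAs, most tRNAs and all mRNAs but mt-Nd6, and the other yields mt-Nd6 and the remaining tRNAs. All mRNAs encode subunits of the respiratory chain or of ATP synthase: complex I (mt-Nd genes), complex III (mt-Cytb), complex IV (mt-Co genes) and complex V (mt-Atp genes), which are completed by subunits from the nucleus. Brown adipocytes are rich in mitochondria and oxidise fuel for heat, and white adipocytes hold fewer of them.

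Nuclear genomes hold copies of mitochondrial DNA, and a row of annotated copies lies over the members that took the fewest counts. In GENCODE release M21 on GRCm38, 7 pseudogenes lie in a row at chr1:24611535-24616197 on the minus strand, in the same order as the genes at positions 6381 to 11042 of chromosome M, a stretch of 4662 bases that holds 11 members whole and parts of mt-Co1 and mt-Nd4. mt-Co2 (complex IV, positions 7013 to 7696, plus strand) and Gm28661, its copy at 24615506 onward, are printed because a read of 38 bases cannot tell them apart in any window. mt-Nd3 (complex I, positions 9459 to 9806, plus strand) and its copy Gm28438 differ near their start, at the base in capitals, by T3C counted from 1 at the first base of mt-Nd3. They are printed because the counts of mt-Nd3 set several of the libraries apart. The last sequences are those of mt-Tq (tRNA for glutamine, positions 3772 to 3842, minus strand) and mt-Tp (tRNA for proline, positions 15356 to 15422, minus strand), the only members with a call for time of day, with the anticodon in capitals. All run 5′ to 3′ along the gene and come from the GENCODE transcripts.
mt-Co2, first 60 bases: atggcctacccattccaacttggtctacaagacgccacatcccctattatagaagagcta
Gm28661, first 60 bases: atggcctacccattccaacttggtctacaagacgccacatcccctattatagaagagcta
mt-Nd3, first 40 bases: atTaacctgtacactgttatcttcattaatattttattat
Gm28438, first 40 bases: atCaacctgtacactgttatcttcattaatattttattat
mt-Tq: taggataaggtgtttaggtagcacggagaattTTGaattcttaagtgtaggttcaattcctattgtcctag
mt-Tp: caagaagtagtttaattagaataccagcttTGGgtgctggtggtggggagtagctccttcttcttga

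The libraries held between 6117343 and 30544847 counts each (median 15826651). *Nampt* checked the labels: it fell from 527 ± 195 CPM (counts normalized to 1e6 counts per library) in WT BAT to 155 ± 23.5 in FANKO BAT (SD, n = 16 each; log2 change −2.31, SE 0.07, from a fit scaled by TMM, edgeR's trimmed mean of M-values) and from 204 ± 63.2 to 118 ± 8.12 in eWAT (−0.50, SE 0.07). CPM are by library size throughout this paragraph and wherever so stated, and are scaled by TMM elsewhere. The depots carried their markers: *Ucp1*, the uncoupling protein of brown fat, stood at 1207 to 5608 CPM in WT BAT and at 0 to 2.83 in WT eWAT, and *Adipoq* (adiponectin) at 2383 to 3457 in WT eWAT. Other cell types moved with genotype. The summed CPM of 10 macrophage markers ranged from 83.0 to 182 in WT BAT and from 830 to 2715 in FANKO BAT, where 9 of the 10 genes rose, that of 8 lymphocyte markers from 1.54 to 5.23 and from 37.6 to 170, and that of 8 stromal markers from 365 to 950 and from 1275 to 3030. The 10 brown adipocyte markers summed to 3049 to 8066 in WT BAT and to 1758 to 3875 in FANKO BAT. In eWAT the stromal markers went the other way (3120 to 5346 in WT, 1531 to 2322 in FANKO), the 10 adipocyte markers summed to 24250 to 34286 in WT and to 17772 to 23440 in FANKO, and the macrophage markers overlapped (889 to 1427 and 710 to 1596). The brown adipocyte markers summed to 377 to 550 in WT eWAT and to 200 to 401 in FANKO eWAT. By the TMM fit at an FDR of 0.01, 6 adipocyte markers were lower and 2 higher in FANKO eWAT. Of the brown adipocyte markers 2 were lower and 3 higher there, where 22.8% of all genes were lower and 27.6% higher. Their log2 changes in eWAT ran from −1.72 to 3.03 with a median of 0.52, so their lower sum does not describe each marker. The 3 higher ones were *Cidea* (3.03), *Cox7a1* (1.24) and *Cpt1b*. Every genotype difference given here comes from depots in which several of these markers also differed with genotype. Whether the members followed the markers, and the part of the markers in the results, was not tested. In bulk tissue, fewer cells of a type and less RNA per cell cannot be told apart.

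Counts fell on few of the 37 members. mt-Rnr2, the large rRNA, took 102144580 of the 150173080 counts assigned to mitochondrial genes over all samples, mt-Co1 took 23215259, mt-Rnr1, the small rRNA, 14107044 and mt-Cytb 4018858. The 11 members inside the copied stretch took 6414 together. mt-Td and mt-Tk were at 0 in all 64 samples, and 9 members averaged under 1 count per sample, all of them in that stretch, among them the mRNAs mt-Co2, mt-Co3, mt-Atp6, mt-Atp8 and mt-Nd4l. Windows of 38 bases shared exactly with an annotated nuclear transcript made up 100% of mt-Co2, 99.9% of mt-Co3, 99.5% of mt-Atp6, 98.8% of mt-Nd4l and 98.1% of mt-Nd3, and also 58.4% of mt-Co1 and 62.6% of mt-Nd4, so the levels of these genes are uncertain. For mt-Atp8 the figure was 3.59%, and for the tRNAs it was 0. The sources used here do not state how reads with several matches were counted. The counts of mt-Co2, mt-Co3, mt-Atp6, mt-Atp8 and mt-Nd4l are therefore not read as levels of their transcripts, which leaves complex V with no mitochondrial subunit to follow. The part of the copies in these low counts was not tested. rRNA had been depleted from the libraries with a kit that also removes mitochondrial rRNA, so the rRNA counts are what the depletion left, and the protocol was not made for RNAs as short as tRNAs (59 to 75 bases).

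**Figure D1:**
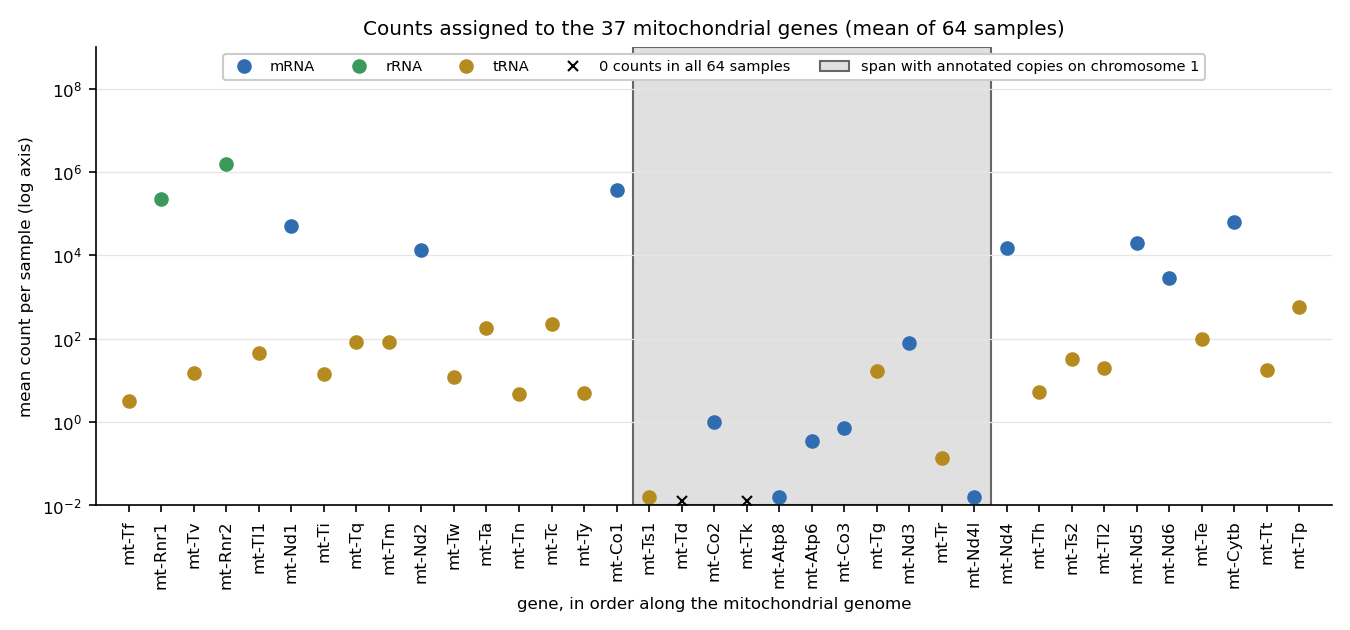
Mean count per sample over 64 samples (log axis) for each of the 37 genes, in their order along the mitochondrial genome. Points are coloured by class, crosses mark the genes at 0 in every sample, and the grey span holds the 11 genes inside the stretch with copies on chromosome 1, whose summed count was 6414.

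A group of libraries stood apart at mt-Nd3 and at mt-Tg, the tRNA for glycine that precedes it. In the 8 WT samples with replicate number 4, mt-Nd3 had 2, 1, 6 and 2 counts in BAT at ZT 6, 10, 18 and 22 and 2, 0, 1 and 0 in eWAT. The other 56 samples had 18 to 274. mt-Tg had 0 or 1 count in those 8 samples and 1 to 131 in the other 56. The copy Gm28438 had 43 to 484 counts in the 8 samples and 4 to 590 in the others, so the counts overlapped. By library size it did not overlap in WT eWAT, at 3.12 to 4.27 CPM (median 3.65) with replicate number 4 and 1.36 to 2.74 CPM (median 2.19) with the other numbers, and in WT BAT the medians were 20.5 and 15.9 with overlap. FANKO BAT samples with replicate number 4 had 95 to 215 counts of mt-Nd3, like the rest of FANKO BAT (42 to 215). mt-Co1 did not set the 8 samples apart (139036 to 1074608 counts, against 97870 to 1198854). The pattern was noticed after the values had been seen and was not tested, nor was its cause. The labels give no litter or maternal line, and counts per gene hold no bases, so the mitochondrial sequence of these mice was not tested. Calls of members for genotype, or for its difference between depots, that turn when these 8 samples are left out are given with and without them.

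**Figure D2:**
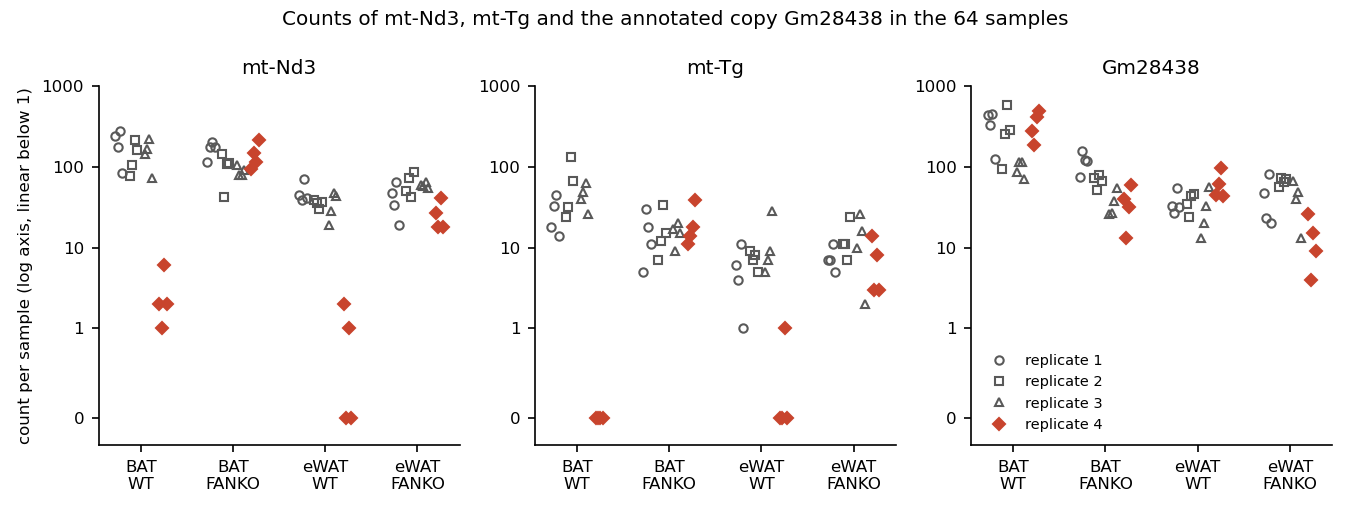
Counts of mt-Nd3, mt-Tg and Gm28438 in each sample (log axis, linear below 1), by depot and genotype, with replicate number 4 filled in red. The WT samples with replicate number 4 lie at 0 to 6 counts for mt-Nd3 and at 0 or 1 for mt-Tg. The other samples hold at least 18 and at least 1, and for Gm28438 the counts overlap (43 to 484 against 4 to 590).

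Mitochondrial genes took a smaller part of the transcriptome in FANKO BAT than in WT BAT and a larger part in FANKO eWAT than in WT eWAT. The share of all counts in the 37 genes was 25.9 ± 6.39% in WT BAT and 14.4 ± 4.42% in FANKO BAT (SD, n = 16 each), and 7.05 ± 2.17% in WT eWAT and 10.5 ± 2.47% in FANKO eWAT. The lowest WT BAT sample (16.8%) stood above the highest WT eWAT sample (10.7%), and in FANKO mice the ranges of the depots overlapped (7.48 to 24.7% and 6.11 to 14.6%). On the log2 scale the share changed by −0.87 (SE 0.14) in BAT and by 0.61 (SE 0.15) in eWAT. A permutation test over samples, with genotypes swapped within time points (two-sided, 100000 permutations), gave p = 2.0e-05 in BAT and p = 4.6e-04 in eWAT, adjusted over 8 shares to 5.3e-05 and 6.1e-04. FANKO samples lay below the WT median in 15 of 16 cases in BAT and above it in 14 of 16 in eWAT.

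The mRNAs separated the genotypes most cleanly. In WT BAT their share of all counts ran from 4.76 to 7.23% with a median of 5.99%, and in FANKO BAT from 2.56 to 4.34% with a median of 3.14%. No FANKO sample reached the lowest WT sample. The log2 difference was −0.92 (SE 0.06), with p = 1.0e-05 by the permutation test, the smallest it can give, and an adjusted p of 4.0e-05. In eWAT the range was 1.23 to 1.92% (median 1.51%) in WT and 1.74 to 2.59% (median 2.16%) in FANKO. Of 16 FANKO samples, 14 lay above the highest WT sample, and the difference was 0.52 (SE 0.07), again with the smallest p of 1.0e-05 by permutation and an adjusted p of 4.0e-05. At each of the 4 time points in each depot the 4 FANKO samples and the 4 WT samples did not overlap. The exact permutation p was then 0.0286, the smallest that 4 against 4 samples allow, and 0.061 after adjustment over 32 shares and time points, so that no single time point passed. The mean fell from 6.83 to 3.22% at ZT 6, from 6.21 to 3.69% at ZT 10, from 5.74 to 2.93% at ZT 18 and from 5.56 to 3.05% at ZT 22 in BAT. In eWAT it went from 1.56 to 2.10% at ZT 6, from 1.48 to 2.25% at ZT 10, from 1.65 to 2.18% at ZT 18 and from 1.39 to 2.16% at ZT 22.

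rRNA and tRNA counts moved the same way with more spread. The rRNA share was 19.8 ± 6.66% in WT BAT (11.3 to 35.5%) and 11.2 ± 4.33% in FANKO BAT (4.72 to 21.7%), a log2 difference of −0.85 (SE 0.19, permutation p = 1.4e-04, adjusted 2.2e-04). In eWAT it was 5.52 ± 2.07% and 8.37 ± 2.46%, a difference of 0.63 (SE 0.20, p = 0.00273 by permutation, adjusted 0.00312). By time point the rRNA groups of BAT did not overlap at ZT 6 (17.8 against 8.43%) and ZT 10 (20.4 against 11.0%) and overlapped at ZT 18 and ZT 22, and those of eWAT overlapped at all time points but ZT 10 (5.52 against 9.61%). Ranges over all samples overlapped in both depots, and within WT BAT the highest sample held 3.14 times the lowest. The tRNA share was 0.0151 ± 0.00373% in WT BAT and 0.0095 ± 0.00365% in FANKO BAT (−0.71, SE 0.16, permutation p = 1.4e-04, adjusted 2.2e-04). In eWAT the tRNA shares of 0.00476 ± 0.00113% and 0.00577 ± 0.00145% did not pass (0.27, SE 0.13, permutation p = 0.0505). Without the WT samples with replicate number 4 this last difference was 0.42 and its adjusted p by permutation 0.00407.

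**Figure D3:**
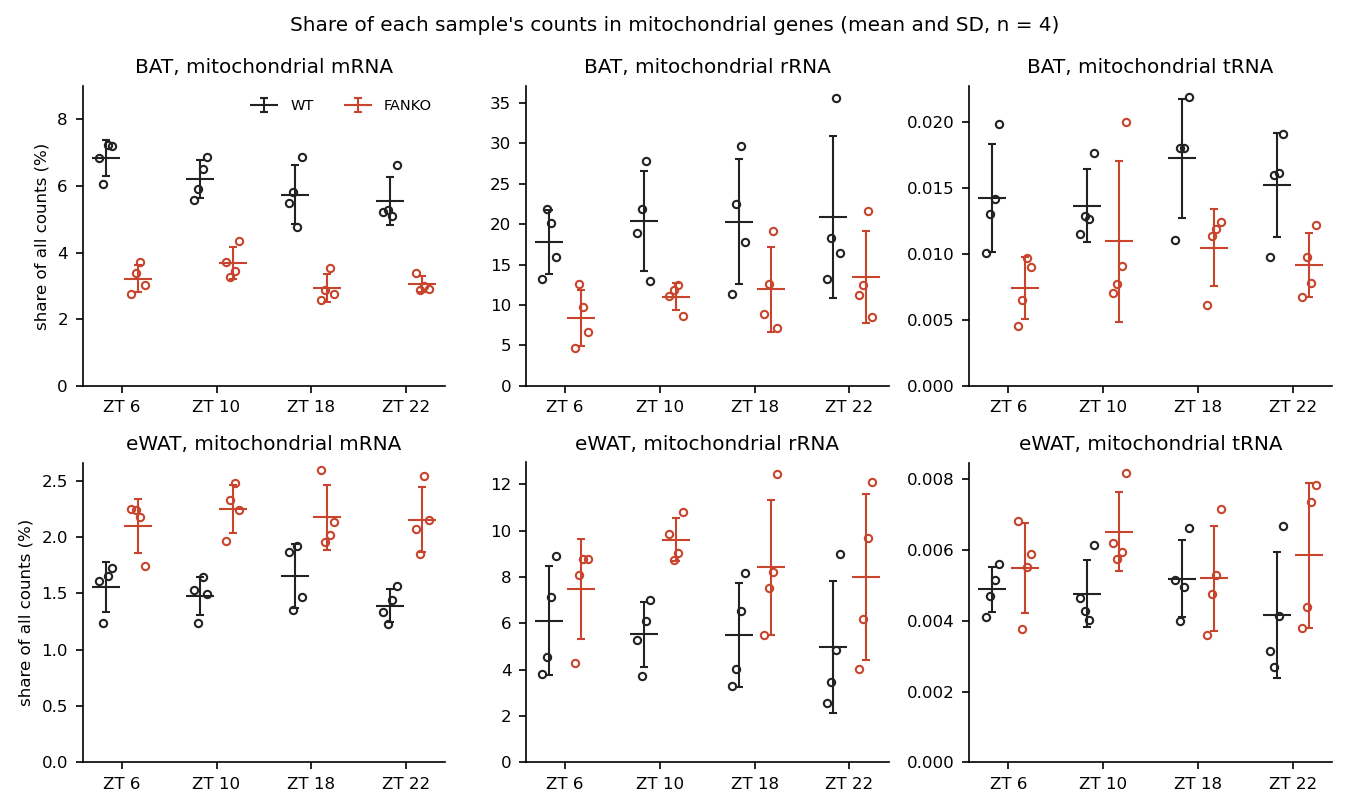
Share of each sample's counts (%) in the mitochondrial mRNA, rRNA and tRNA genes, by depot, time point and genotype. Open points are samples and bars give the mean and SD of 4 samples. The mRNA share separates WT from FANKO at every time point in both depots, with FANKO lower in BAT and higher in eWAT, while rRNA shares spread from 11.3 to 35.5% within WT BAT.

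Time of day was compared in the shares between opposite time points. The pairs of opposite time points (ZT 18 against ZT 6, ZT 22 against ZT 10) were compared in each depot and genotype for all 4 shares, and 0 of the 32 exact permutation tests reached an unadjusted p under 0.05, with a lowest adjusted p of 0.847. With 4 samples against 4 these tests can give no p below 0.0286, so a single share could not have passed the adjustment. In BAT the mRNA share was lower at the later time point in all 4 comparisons, with log2 differences of −0.26 and −0.16 in WT and of −0.14 and −0.27 in FANKO (exact permutation p = 0.0857, 0.2, 0.314 and 0.0571, all 0.847 after adjustment).

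Gene by gene, 27 members passed the filter on low counts: both rRNAs, 8 mRNAs (mt-Nd1, mt-Nd2, mt-Co1, mt-Nd3, mt-Nd4, mt-Nd5, mt-Nd6 and mt-Cytb) and 17 tRNAs. The other 10 are the 9 that averaged under 1 count and mt-Tf, the tRNA for phenylalanine, with 207 counts in all. In BAT, edgeR's quasi-likelihood test put 23 of the 27 lower in FANKO and 0 higher at a Benjamini-Hochberg adjusted p under 0.01, and all 27 estimates were negative, with a median log2 change of −1.35. Of all 20249 genes tested, 33.9% were lower and 33.1% higher in FANKO BAT at this threshold, with a median log2 change of 0.0001. The scale carries part of this. TMM sets the middle of all genes near no change, and scaling by library size alone moved the median of all genes to 0.58 in BAT and to −0.27 in eWAT. Under it 16 members were lower in FANKO BAT and the members' median was −0.73, while mt-Tq, mt-Tw and mt-Nd3, none of which passed the test, had estimates above 0.

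Among the mRNAs in BAT, mt-Cytb, the mitochondrial subunit of complex III, changed most. It ranged from 7823 to 16284 CPM (median 11285) in WT BAT and from 1617 to 4164 CPM (median 2341) in FANKO BAT. Its genotypes did not overlap, and its log2 change was −2.20 (SE 0.12, adjusted p = 2.8e-24). mt-Co1, the catalytic subunit of complex IV, ranged from 44595 to 64208 CPM (median 55499) in WT and from 15097 to 28662 CPM (median 20108) in FANKO. The lowest WT sample again stood above the highest FANKO sample (−1.40, SE 0.09, adjusted p = 4.73e-22 by edgeR). mt-Nd6, the single mRNA of the other strand and a complex I subunit, ran from 295 to 868 CPM (median 536) in WT and from 83.2 to 246 CPM (median 114) in FANKO, also without overlap (−2.02, SE 0.19, adjusted p = 1.59e-14). The other complex I subunits followed: mt-Nd5 changed by −1.79, mt-Nd4 by −1.61, mt-Nd1 by −1.29 and mt-Nd2 by −1.22, with SEs of 0.11 to 0.15. Groups did not overlap for mt-Nd5, mt-Nd4 and mt-Nd1.

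mt-Nd3 was the mRNA that did not pass in BAT. Its estimate was −0.39 (SE 0.34, adjusted p = 0.30 by edgeR) with all samples. Without the WT samples with replicate number 4 it was −0.82 with an adjusted p of 1.2e-09. As annotated, 6 windows of 38 bases of mt-Nd3 are not shared with Gm28438. They lie at its first bases, around T3C, and at its last, which the annotated copy (345 bases against 348) does not reach. Which reads these counts came from was not tested.

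Both rRNAs were lower in FANKO BAT. mt-Rnr2 ranged from 137842 to 506013 CPM (median 223178) in WT and from 32555 to 175430 CPM (median 91757) in FANKO, and the groups overlapped (−1.47, SE 0.20, adjusted p = 2.01e-09 by edgeR). mt-Rnr1 ranged from 11818 to 114873 CPM and from 3486 to 44094 CPM (−1.24, SE 0.31, adjusted p = 3.07e-04). These are the members with the widest spread between samples of a group among those with many counts.

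Of the 17 tRNAs tested, 14 were lower in FANKO BAT. The changes of mt-Ts2 and mt-Tl2 (a serine and a leucine tRNA), mt-Th (histidine) and mt-Te (glutamate) were −2.44, −2.30, −2.17 and −2.20, and for these 4 the genotypes did not overlap. mt-Ts2 ranged from 2.37 to 11.9 CPM (median 7.08) in WT and from 0.55 to 2.20 CPM (median 1.24) in FANKO. mt-Te ranged from 7.16 to 39.3 CPM in WT and from 2.05 to 6.87 CPM in FANKO. mt-Tp, which took 36549 of the tRNA counts, fell by 1.35 (SE 0.19), and mt-Tc (cysteine) and mt-Ta (alanine) by 1.30 and 1.26. mt-Tq (−0.50), mt-Tm (−0.67) and mt-Tw (−0.48), the tRNAs for glutamine, methionine and tryptophan, did not pass. Without the WT samples with replicate number 4, mt-Tn (asparagine) went from −1.09 to −0.97 and no longer passed (adjusted p = 0.0154 by edgeR), and mt-Tg, which has 0 counts in those samples of BAT, went from −1.35 to −1.79 and still passed. In all, 10 of the 27 members had no overlap between the 16 FANKO and the 16 WT samples of BAT, mt-Nd1, mt-Co1, mt-Nd4, mt-Th, mt-Ts2, mt-Tl2, mt-Nd5, mt-Nd6, mt-Te and mt-Cytb, against 10% of all genes tested with FANKO lower.

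Along the genome the changes in BAT were larger past mt-Nd4 than before it. From mt-Rnr1 to mt-Co1 the called members lay between −0.90 and −1.59, and from mt-Th to mt-Cytb between −1.79 and −2.44. mt-Tt and mt-Tp, the last members of the circle, were at −1.44 and −1.35. This order was noticed after the values had been seen and is given without a test.

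**Figure D4:**
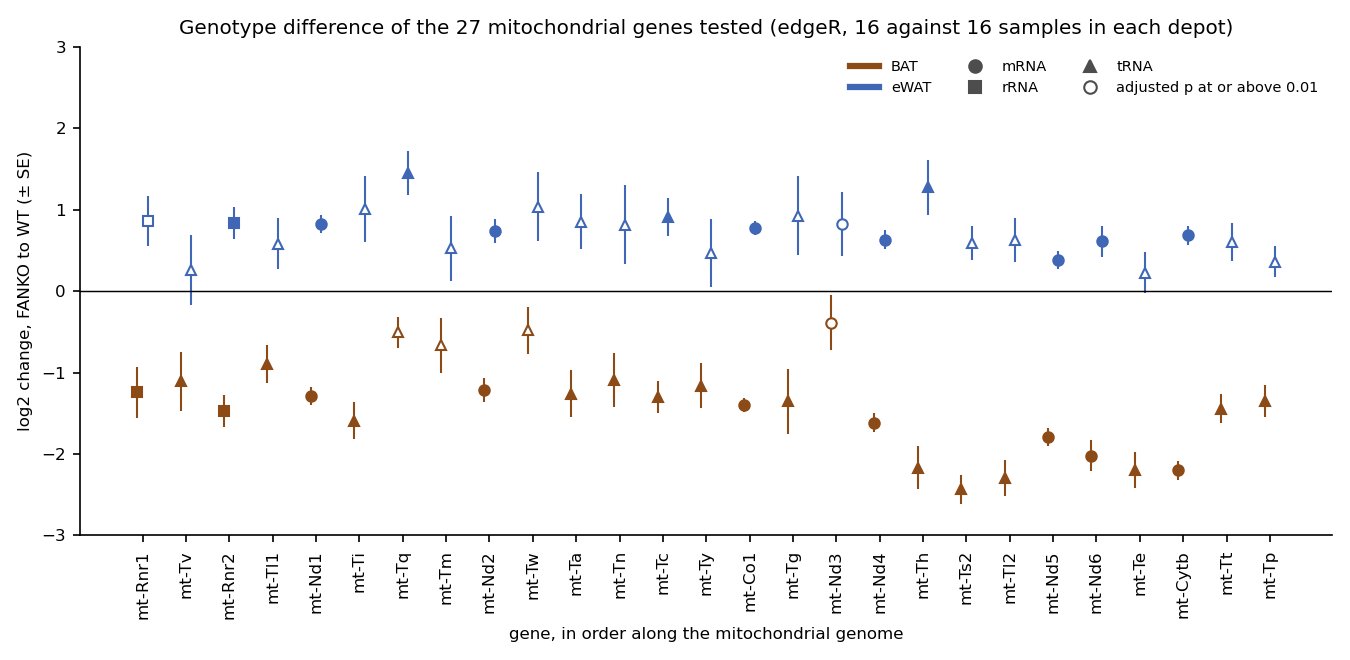
log2 change from WT to FANKO (± SE, edgeR, 16 against 16 samples per depot) for the 27 members tested, in genome order, in BAT (brown) and eWAT (blue). Symbols show the class, and open symbols did not pass an adjusted p of 0.01. All 27 estimates are negative in BAT and positive in eWAT with TMM scaling. Scaling by library size alone puts mt-Tq, mt-Tw and mt-Nd3 above 0 in BAT and mt-Te at −0.0096 in eWAT, none of which passed the test.

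In eWAT, 11 of the 27 members were higher in FANKO and 0 lower, with a median log2 change of 0.74. Over all genes tested 27.6% were higher and 22.8% lower, with a median of −0.025. The 7 mRNAs other than mt-Nd3 all rose. mt-Co1 ran from 6249 to 12726 CPM (median 8776) in WT eWAT and from 11853 to 18670 CPM (median 15065) in FANKO eWAT, with a small overlap (0.78, SE 0.09, adjusted p = 1.35e-11 by edgeR). mt-Cytb ran from 981 to 2044 CPM (median 1556) and from 1928 to 3410 CPM (median 2453), a change of 0.69 (SE 0.12, adjusted p = 1.1e-06). mt-Nd1 changed by 0.82, mt-Nd2 by 0.74, mt-Nd4 by 0.63, mt-Nd6 by 0.61 and mt-Nd5 by 0.38. Scaled by library size alone, mt-Nd5 (0.15, adjusted p = 0.148 by edgeR) and mt-Nd6 (0.36, adjusted p = 0.0505) did not pass. With TMM, mt-Nd5 did not pass without replicate number 2 or 3, nor mt-Nd6 without number 1, 2 or 3. mt-Rnr2 rose by 0.84 (SE 0.20) from a median of 38667 CPM to 72958 CPM, and mt-Rnr1 (0.86, SE 0.31, adjusted p = 0.0132) did not pass. Of the tRNAs mt-Tq (1.45), mt-Th (1.28) and mt-Tc (0.91) passed. Their levels in eWAT were low: mt-Tq ran from 0.15 to 1.89 CPM (median 0.50) in WT and from 0.53 to 6.07 CPM (median 1.45) in FANKO, and mt-Tc from 0.77 to 7.45 CPM and from 2.68 to 10.95 CPM. mt-Th reached at most 0.21 CPM in WT eWAT and 0.54 CPM in FANKO eWAT, a few counts per library. For 0 members did the eWAT groups separate without overlap, against 4.57% of all genes with FANKO higher. Without the WT samples with replicate number 4 the count of members higher in FANKO was 17. mt-Rnr1 then passed at 1.26, mt-Tv (valine) at 1.55 against 0.26 over all samples, mt-Tm at 1.77 against 0.53, mt-Tl1 (leucine) at 1.08 against 0.58, mt-Tw at 2.13 against 1.04 and mt-Ta at 1.47 against 0.85, while mt-Th (0.96, adjusted p = 0.019 by edgeR) no longer did. mt-Tg did not pass either way (0.92 and 0.48). mt-Nd3 then passed with a change of 0.38 and an adjusted p of 0.00778, while it stood at 0.83 with an adjusted p of 0.062 over all samples. Without replicate number 2 the count was 7.

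The difference between the genotype changes of the depots was tested in the same fit, which took all 64 samples as separate. The labels do not say whether a BAT and an eWAT sample came from the same mouse. The difference passed for 24 of the 27 members, each with a more negative change in BAT, where 32.1% of all genes did so. The exceptions were mt-Tv (−1.37), mt-Tm (−1.19) and mt-Nd3 (−1.21). Without the WT samples with replicate number 4 these 3 passed, at −2.79, −2.42 and −1.20 (adjusted p = 2.2e-05, 1.8e-05 and 6.7e-09 by edgeR), mt-Ty (tyrosine) did not (−1.47, adjusted p = 0.0172), and the count was 26. mt-Tg stayed at −2.27 and passed in both.

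Per length, mt-Rnr2 had the highest level in every group. In WT BAT, RPKM (CPM by library size, divided by gene length in kilobases) averaged 110207 ± 32911 for mt-Rnr2, 25983 ± 3905 for mt-Co1, 25138 ± 15845 for mt-Rnr1, 7205 ± 1249 for mt-Cytb, 6097 ± 1199 for mt-Nd1, 1577 ± 423 for mt-Nd2, 1466 ± 272 for mt-Nd5, 1382 ± 247 for mt-Nd4 and 782 ± 240 for mt-Nd6 (SD, n = 16). The means of mt-Co1 and mt-Rnr1 lay within an SD of each other, as did those of mt-Cytb and mt-Nd1, and of mt-Nd2, mt-Nd5 and mt-Nd4. These genes were counted in the same libraries, and their order within each sample was not tested. In FANKO BAT mt-Nd1 (3727 ± 704) stood above mt-Cytb (2354 ± 529). In eWAT mt-Cytb and mt-Nd1 were at 1649 ± 287 and 1433 ± 237 in WT and at 2249 ± 371 and 2148 ± 330 in FANKO. Among the mRNA counts of a sample, mt-Co1 took 65.9 ± 4.55% in BAT of WT mice and 70.4 ± 3.84% in BAT of FANKO mice, and 70.3 ± 2.96% and 71.5 ± 2.20% in eWAT. mt-Cytb took 13.6 ± 1.87% and 8.33 ± 1.29% in BAT and 12.4 ± 1.34% and 11.8 ± 1.20% in eWAT, so that the highest FANKO BAT sample (11.5%) lay below the lowest WT BAT sample (11.7%).

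tRNA counts came mostly from the strand of mt-Nd6. The 8 tRNA genes on the minus strand held 74196 counts over all samples, or 81.3% of the tRNA counts, and the 14 on the plus strand held 17032. mt-Tp alone made up 31.7 ± 10.3% of tRNA counts in BAT of WT mice and 29.4 ± 13.9% in BAT of FANKO mice, and 66.5 ± 11.5% and 58.1 ± 15.6% in eWAT. In WT mice mt-Tp had the smallest log2 difference between depots of the 17 tRNAs tested (1.33). It stood at 63.7 ± 20.4 CPM in WT BAT and at 25.3 ± 5.0 CPM in WT eWAT, while mt-Tc stood at 38.4 ± 14.2 and 3.36 ± 1.68 CPM. Whether the counting used strand is not stated in the sources used here, so counts of genes that overlap or face each other on opposite strands cannot be fully told apart.

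Ratios within a sample do not depend on scaling between libraries, and 16 of them were tested together (8 per depot). Ratios with rRNA counts are of what the rRNA depletion left, and its part in them was not tested. mt-Nd6 relative to the other mRNAs was lower in FANKO BAT, at 0.00462 ± 0.00124 against 0.00665 ± 0.00164 in WT (log2 −0.52, SE 0.13, permutation p = 4.6e-04, adjusted 0.00696), and lower than the WT median in 15 of 16 samples. Most counts of the other mRNAs were from mt-Co1, so this ratio does not follow each mRNA of that strand. Among the mRNAs tested, only mt-Cytb (−2.20) had a larger fall in BAT than mt-Nd6 (−2.02) by the TMM fit. In eWAT the same ratio was 0.00402 ± 0.0015 against 0.00448 ± 0.00141 and did not pass (−0.17, SE 0.16). The ratio of rRNA to mRNA counts was 3.37 ± 1.47 in WT BAT and 3.51 ± 1.38 in FANKO BAT (0.07, SE 0.19), and 3.62 ± 1.21 and 3.90 ± 1.20 in eWAT (0.11, SE 0.19). mt-Rnr2 to mt-Rnr1 was 8.42 ± 2.16 and 6.75 ± 1.34 in BAT, which did not pass (−0.30, SE 0.14, permutation p = 0.0313, adjusted 0.167). The ratio of tRNA to mRNA counts did not pass in either depot (0.20, SE 0.14 in BAT and −0.25, SE 0.14 in eWAT).

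The nuclear partners of the respiratory chain moved with the mitochondrial mRNAs. All 7 nuclear core subunits of complex I, all 9 of complex III and all 12 of complex IV tested were lower in FANKO BAT and higher in FANKO eWAT, with list medians of −1.48, −1.50 and −1.52 in BAT and 0.80, 0.91 and 0.89 in eWAT. Over all genes tested 33.9% were lower in FANKO BAT and 27.6% higher in FANKO eWAT. *Ndufs1*, an iron-sulfur subunit of complex I, changed by −1.73 and 0.77, *Cyc1* (cytochrome c1 of complex III) by −1.57 and 0.93, and *Cox4i1* of complex IV by −1.37 and 0.91. Mitochondrial mRNA counts stood at 17.8 ± 2.68 times the counts of the complex I list in WT BAT and at 19.0 ± 2.60 times in FANKO BAT (log2 0.09, SE 0.07), and the ratios to complexes III (0.05, SE 0.07) and IV (0.12, SE 0.07) did not pass either. In eWAT these differences were −0.01 (SE 0.06), −0.08 (SE 0.06) and −0.09 (SE 0.05). Each ratio used the counts of all mitochondrial mRNAs, most of them from mt-Co1, so it does not follow the subunits of a single complex. In BAT mt-Cytb, of complex III, changed by −2.20, against the median of −1.50 for the nuclear complex III list. For complex V, 13 of 15 nuclear subunits were lower in FANKO BAT and 1 higher, and all 15 were higher in FANKO eWAT. The higher one, *Atp5g1*, singled out after its value was seen, encodes a form of the membrane ring subunit and rose by 1.74 (SE 0.10). The ratio of mitochondrial mRNA counts to complex V was lower in FANKO BAT, at 4.67 ± 0.62 against 5.49 ± 0.75 (−0.23, SE 0.06, permutation p = 8.7e-04, adjusted 0.00696). In eWAT it did not pass (0.03, SE 0.06).

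The nuclear genes that serve the mitochondrial genome were given by role. Over all genes tested 33.9% were lower in FANKO BAT and 27.6% higher in FANKO eWAT. Of 10 genes for mitochondrial transcription, 9 were lower in FANKO BAT and 6 higher in FANKO eWAT. *Polrmt*, the RNA polymerase, changed by −0.66 (SE 0.06) in BAT and 0.23 (SE 0.06) in eWAT, *Tfam*, which packages mitochondrial DNA and starts transcription, by −0.80 and 0.43, *Tfb2m*, which opens the promoter, by −1.60 and 0.38, and *Tefm*, an elongation factor, by −0.97 and 0.45. *Mterf2*, a member of the termination factor family, fell by 1.68 in BAT, and its eWAT value of 0.08 did not pass. Of 22 genes for RNA processing and turnover, 20 were lower in FANKO BAT and 20 higher in FANKO eWAT. *Lrpprc*, which stabilises mitochondrial mRNAs, changed by −1.30 and 0.54, and *Elac2*, which cuts the 3′ ends of tRNAs, by −0.67 and 0.36. Of 17 genes that charge mitochondrial tRNAs with amino acids, 16 were lower in BAT and 11 higher in eWAT, with *Iars2* (isoleucine) at −1.47 and *Sars2* (serine) at −0.85 in BAT and at −0.0028, which did not pass, and 0.64 in eWAT.

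Of 15 genes that copy and maintain mitochondrial DNA, 11 were lower and 2 higher in FANKO BAT, with a median of −0.54, and 2 were lower and 4 higher in FANKO eWAT, with a median of 0.03. Over all genes tested 33.9% were lower and 33.1% higher in BAT, and 22.8% and 27.6% in eWAT, so the eWAT counts lie near the background. *Polg*, the DNA polymerase, changed by −0.38 (SE 0.04) in BAT, and *Twnk*, the helicase, by −1.18 (SE 0.07). Their eWAT values of 0.0090 and 0.07 did not pass. *Slc25a33*, a pyrimidine nucleotide carrier, changed by −1.42 and 1.27. Of 10 regulators of mitochondrial content, 4 were lower and 4 higher in FANKO BAT, near the same background. *Ppargc1b*, a coactivator of mitochondrial genes, fell by 2.07, and *Esrra*, a nuclear receptor that works with it, by 0.69, whereas *Esrrb* rose by 1.15. In eWAT these 3 genes rose by 0.56, 0.83 and 1.73. The counts of *Lars2*, the leucine enzyme of the tRNA list, singled out after its value was seen, varied so much between samples (0.14, SE 0.75) that no change was detectable.

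Counts assigned to the list of annotated nuclear copies moved with the mitochondrial genome in BAT. All 10 genes of the list were lower in FANKO BAT, with a median of −1.97, where 33.9% of all genes were lower. Among them were Gm28438 (−2.47, SE 0.22) and Gm28661 (−2.14, SE 0.37). Over the bases compared, Gm28438 had 1 mismatch to mt-Nd3 and Gm28661 had 0 to mt-Co2. Whether these counts came from nuclear or from mitochondrial RNA was not tested. Gm13341 and Gm11808, the latter annotated as protein-coding, had no close match to a member when compared without gaps. Of the 10, 3 were higher in FANKO eWAT, near the 27.6% of all genes, with a list median of 0.54. These were Gm13340, Gm13341 and Gm11808, and none of the 7 copies on chromosome 1 passed there. By library size the 10 genes summed to 29.0 to 126 CPM in WT BAT and to 15.8 to 42.3 CPM in FANKO BAT.

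Between depots, all 27 members were higher in BAT than in eWAT of WT mice, with a median log2 difference of 3.32, where 32.7% of all genes were higher at a median of −0.11. Differences ran from 1.33 (mt-Tp) to 4.96 (mt-Ti, the isoleucine tRNA) and among the mRNAs from 2.64 (mt-Co1) to 3.33 (mt-Nd6). In FANKO mice 19 of the 27 were higher in BAT, with a median of 0.96, where 28.1% of all genes were higher. Without the WT samples with replicate number 4 the count was 20. mt-Co1 was at 20907 ± 4183 CPM in FANKO BAT and 15091 ± 1921 CPM in FANKO eWAT (0.47, SE 0.09, adjusted p = 2.92e-06 by edgeR), mt-Rnr2 differed by 0.30 (SE 0.20) and did not pass, and mt-Cytb, at 2501 ± 737 and 2506 ± 466 CPM, differed by −0.0061 (SE 0.12). mt-Nd2 differed by 1.37 (SE 0.15).

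Rhythm over the day, fitted as a cosine and a sine of 24 h, was called for 1 member in WT BAT, where 13.9% of all genes were called. That member was mt-Tq (adjusted p = 8.7e-05 by edgeR). Its CPM in WT BAT were 3.66, 7.51, 6.87 and 7.68 at ZT 6, 6.45, 8.56, 6.70 and 4.38 at ZT 10, 9.78, 20.8, 31.2 and 20.1 at ZT 18, and 12.6, 16.1, 19.7 and 15.7 at ZT 22. Every dark phase sample lay above every light phase sample. The fitted peak to trough was 1.78 on the log2 scale. In FANKO BAT the means were 5.71, 6.13, 11.2 and 8.83 CPM, which did not pass at an FDR of 0.01 (adjusted p = 0.127), and the test of a difference between genotypes gave an adjusted p of 0.493. The call in WT BAT was lost when replicate number 3 was left out.

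In FANKO BAT the single call, where 2.84% of all genes were called, was mt-Tp (adjusted p = 0.00641 by edgeR). It rested on 1 sample: at ZT 10 the CPM were 30.5, 24.7, 27.02 and 128.6, and the other 12 samples ranged from 12.97 to 27.6. The call was gone when any single replicate number was left out. In eWAT 0 members were called rhythmic in WT and 0 in FANKO, where 9.38% and 6.77% of all genes were called. edgeR gave 2 and 1 members at an unadjusted p under 0.05, and DESeq2 and limma-voom called 0 as well. The rhythm differed between genotypes for 0 members in BAT and 0 in eWAT (2.76% and 1.15% of all genes), with 0 and 3 members at an unadjusted p under 0.05 by edgeR and 0 calls by DESeq2 and limma-voom. None of the 8 mRNAs and neither rRNA reached an unadjusted p under 0.05 in any of the 4 rhythm tests.

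**Figure D5:**
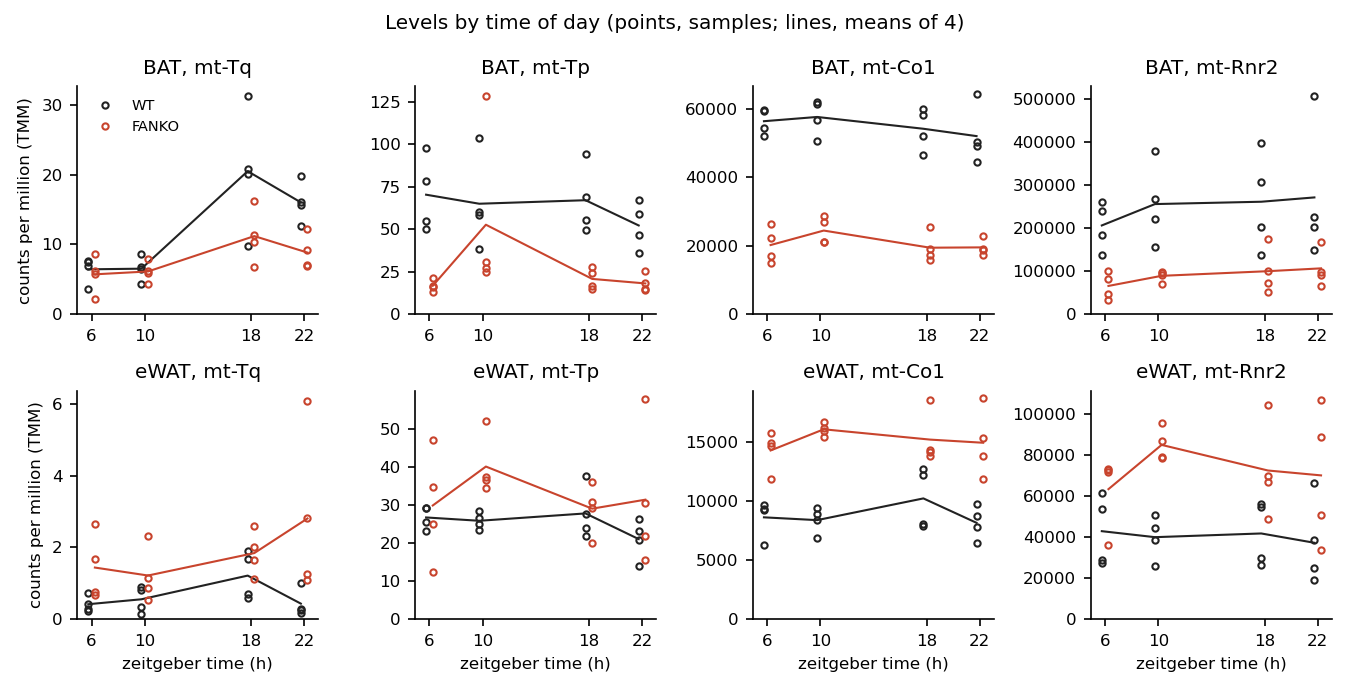
Levels (TMM-scaled CPM) of mt-Tq, mt-Tp, mt-Co1 and mt-Rnr2 by zeitgeber time (h) in BAT and eWAT, with points for samples and lines through the means of 4 samples, WT in black and FANKO in red. In WT BAT mt-Tq averaged 6.43 and 6.52 CPM at ZT 6 and ZT 10 and 20.5 and 16.01 CPM at ZT 18 and ZT 22, and the FANKO BAT sample of mt-Tp at 128.6 CPM stands alone.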

How the data were processed

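RNA sequencing counts of 64 samples were used, with groups from the sample labels. The authors deposited raw whole-number counts per gene, without normalization or pooling. By the study's methods and the submitters' processing notes, total RNA was depleted of rRNA, stranded libraries were sequenced as 38-bp paired-end reads, aligned with STAR 2.5.3a to GRCm38.p5 and counted with featureCounts 1.5.3; strand and multi-mapping options are not given in the sources used here. Every value column matched a sample. Symbols, positions and sequences came from GENCODE M21 on GRCm38 (233 identifiers had no symbol).

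Genes were kept by edgeR's filterByExpr (minimum count 10, minimum total 15), scaled by TMM and fitted by edgeR 4.0.16 (R 4.3.3) with a mean, cosine and sine per depot and genotype; p-values were adjusted over the 20249 genes kept and compared with an FDR of 0.01. Shares and ratios were compared by permutation of genotype within time points (100000 permutations; exact for 4 against 4; Python 3.11.15, scipy 1.17.1), two-sided, at an adjusted p of 0.05. Fits were tested on simulated data. limma 3.58.1 and DESeq2 1.42.0 served as alternatives, beside other scalings, filters, denominators, a replicate block and left-out samples. The sets without the WT samples with replicate number 4, and the replicate block for ratios, were chosen after seeing the data.

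Named genes were all members, *Nampt*, 8 nuclear genes by role, the 2 genes with the smallest p per depot in each nuclear list, and detected copies; exceptions are marked. Members and lists were chosen with earlier results of these data known. The labels do not say which samples came from separate animals, so p-values measure the spread between samples. Total counts of 6117343 to 30544847 per sample leave counting error small for mRNAs and rRNAs and large for most tRNAs.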

Additional observations from a re-analysis of the deposited data

Results flagged for a closer look

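Dixon's test was run on 4 shares of counts in each of 16 groups of 4 samples, 64 in all. In 5 of the 64, 1 sample lay far from the other 3. Chance alone flags about 1 in 20 independent groups, and these overlap, since the same samples enter all 4 shares. The mRNA share of WT BAT at ZT 22 was 6.63% in replicate 4 and 5.10 to 5.28% in the others. The tRNA share of FANKO BAT at ZT 10 was 0.0200% in replicate 4, the sample with the high mt-Tp value, and 0.00702 to 0.00907% in the others. In FANKO eWAT at ZT 6, replicate 1 had 6.53% of counts in all mitochondrial genes (others 10.3 to 10.9%) and 4.27% in the rRNAs (others 8.08 to 8.77%), and replicate 4 had 1.74% in the mRNAs (others 2.17 to 2.25%).

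The change from WT to FANKO differed between BAT and eWAT for 24 members by edgeR's test of that difference (BAT minus eWAT, log2). Among the mRNAs the differences were −2.11 for mt-Nd1, −1.96 for mt-Nd2, −2.18 for mt-Co1, −2.25 for mt-Nd4, −2.17 for mt-Nd5, −2.63 for mt-Nd6 and −2.89 for mt-Cytb. The rRNAs had −2.11 (mt-Rnr1) and −2.31 (mt-Rnr2). The tRNAs on the plus strand had −1.48 (mt-Tl1), −2.60 (mt-Ti), −1.52 (mt-Tw), −2.27 (mt-Tg), −3.44 (mt-Th), −3.03 (mt-Ts2), −2.92 (mt-Tl2) and −2.05 (mt-Tt). Those on the minus strand had −1.96 (mt-Tq), −2.11 (mt-Ta), −1.91 (mt-Tn), −2.21 (mt-Tc), −1.63 (mt-Ty), −2.42 (mt-Te) and −1.72 (mt-Tp).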

How the results depend on the processing

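The shares of all mitochondrial genes, mRNAs and rRNAs in both depots and of tRNAs in BAT kept their direction and passed under every alternative run. The eWAT tRNA share, at 0.27 (adjusted p = 0.0505), passed at 0.33 over counts outside the mitochondrial genome, 0.32 when abundant noncoding RNAs were also left out, 0.52 on TMM-scaled CPM and 0.0010 percentage points as a mean of percents, and leaving out samples gave 0.23 to 0.42. mt-Rnr2 to mt-Rnr1 in BAT passed without 1 WT sample of replicate 3, at ZT 18 (−0.36) or ZT 22 (−0.37), over a range of −0.37 to −0.20. Ratios that did not pass changed sign when samples were left out, with ranges of −0.031 to 0.043 for mRNA to complex I in eWAT, −0.15 to 0.022 for mt-Rnr2 to mt-Rnr1 in eWAT, −0.083 to 0.15 for rRNA to mRNA in BAT and −0.24 to 0.019 for mt-Nd6 to the other mRNAs in eWAT. Members higher in FANKO eWAT numbered 18 at an FDR of 0.05 and 7 to 17 with samples left out. Rhythmic members in WT BAT numbered 2 by limma-voom and 0 without replicate 3. In FANKO BAT they numbered 0 by library size alone, separate fits, limma-voom and without any 1 replicate number. Members that did not pass changed sign in BAT by library size alone (mt-Tq 0.10, mt-Tw 0.13, mt-Nd3 0.22) and by limma-voom (mt-Nd3 0.61), and in eWAT mt-Te was at −0.0096 by library size alone and at −0.033 to 0.41 with replicate numbers left out. The cause was not tested.

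Not every same-numbered pair of WT and FANKO samples deviated together: correlations ran from −0.131 to 0.225, 25 of 32 were above 0 and 6 over 0.1, and 15 of 32 samples (10 of 16 in BAT) correlated best with their own number, so the numbers were not taken to pair the samples. With the replicate block, 17 members were higher in FANKO eWAT, the eWAT tRNA share (0.27) had an adjusted p of 0.0101 and mt-Rnr2 to mt-Rnr1 in BAT (−0.30) one of 0.0013. The block moved no other count of members by over 1.5 times.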

Other observations

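The rRNA share followed the replicate number across time points, which the mRNA share did less. In BAT its median over the 4 time points was 28.8% for WT replicate 3 and 15.8% for FANKO replicate 3, against 13.2% and 9.99% for replicate 1 and 16.2% and 7.82% for replicate 4. In eWAT it was 3.55% and 4.89% for replicate 1 and 8.54% and 11.5% for replicate 4. The mRNA medians ran from 5.53 to 6.87% over the replicate numbers in WT BAT and from 2.97 to 3.49% in FANKO BAT. This was noticed after the values had been seen, and no test was run. The labels do not say whether a replicate number marks a litter, an extraction or a sequencing run.

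Gm26917, a nuclear noncoding RNA gene with many counts, rose in FANKO BAT (1.14, SE 0.11, TMM-scaled), with medians by library size of 1246 CPM in WT and 3700 CPM in FANKO. Of the 8 abundant noncoding RNAs tested it was the only one higher there, and *Rn7sk* (−0.33, SE 0.09) was the only one lower.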
